A study of Mus musculus with 32 samples.

Results

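The genes described here encode transcription factors of the monocyte and macrophage lineage, and the question was where and how strongly the RNA-binding protein IGF2BP3 was crosslinked to their transcripts in 2 kinds of MLL-Af4 cells. They were found by gene symbol in the deposited RNA tables of both cell types, and their eCLIP peaks by the Ensembl gene identifier that begins each peak's name. Of 9 listed symbols, 8 were matched, among 23620 genes present in both tables, and the remaining one was not analysed here. The 8 genes are *Maf*, *Klf4*, *Klf2*, *Irf4*, *Irf5*, *Spi1*, *Nr4a1* and *Zeb2*.

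Lin- cells were mouse bone marrow cells depleted of lineage-positive cells, transduced with a retrovirus carrying flag-tagged MLL-Af4 and selected with G418 in culture. CD11b+ cells were selected with a CD11b antibody from splenic tumors of mice with MLL-Af4 leukemia, although the names of their eCLIP libraries begin with bm, as those of the Lin- libraries do. For eCLIP, wild-type cells were used, with 3 biological and 3 technical libraries of Lin- cells and 2 biological and 2 technical libraries of CD11b+ cells, each with its own size-matched input (smInput). RNA-seq covered 3 wild-type and 3 IGF2BP3 KO libraries of each cell type, and all cells of both genotypes carried MLL-Af4. In the paper, the leukemic mice were lethally irradiated recipients transplanted with transduced marrow, which came from donors and was enriched with fluorouracil. No other treatment is described for the samples used here.

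Macrophage identity rests on a small network of DNA-binding proteins. *Spi1* encodes PU.1, the ETS factor that myeloid cells cannot form without, and IRF proteins bind DNA with it at shared sites. *Klf2* and *Klf4* are Krüppel-like zinc-finger factors, *Nr4a1* is an orphan nuclear receptor needed by non-classical monocytes, *Maf* encodes the bZIP factor c-Maf, and *Zeb2* encodes a zinc-finger E-box repressor that acts in monocytes and dendritic cells as well as in epithelial-mesenchymal transition. IGF2BP3 is an oncofetal protein that binds mRNA and pre-mRNA, often at CA-rich elements, and eCLIP maps such contacts by crosslinking, immunoprecipitation and sequencing.

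For the genes on which the results turn, the site with peaks in the largest number of a cell type's biological libraries shows what was bound. For the Lin- sites of *Irf5* and *Klf2* this number was 1 of 3. A site is a merger of overlapping peaks of the same gene and cell type. Sequences were read 5′ to 3′ on the transcribed strand from the RefSeq assembly GRCm38.p6, whose chromosomes are those of the mm10 build used for the peaks. Capitals mark every ACAC or CACA, the short CA-rich elements.

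Zeb2 in Lin- cells, chr2:45109889-45109966, minus strand: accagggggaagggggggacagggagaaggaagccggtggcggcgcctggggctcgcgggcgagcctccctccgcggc
Zeb2 in CD11b+ cells, chr2:45109093-45109206, minus strand: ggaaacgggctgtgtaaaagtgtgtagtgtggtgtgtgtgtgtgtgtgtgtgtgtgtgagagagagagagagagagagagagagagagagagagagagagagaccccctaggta
Spi1 in Lin- cells, chr2:91113208-91113253, plus strand: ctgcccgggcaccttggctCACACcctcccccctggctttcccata
Irf5 in Lin- cells, chr6:29534973-29535032, plus strand: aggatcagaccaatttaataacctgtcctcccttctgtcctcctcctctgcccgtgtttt
Irf5 in CD11b+ cells, chr6:29530658-29530750, plus strand: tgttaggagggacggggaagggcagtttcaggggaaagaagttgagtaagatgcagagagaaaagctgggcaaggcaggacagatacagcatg
Klf2 in Lin- cells, chr8:72320098-72320168, plus strand: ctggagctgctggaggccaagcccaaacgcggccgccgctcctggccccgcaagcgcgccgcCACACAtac
Klf2 in CD11b+ cells, chr8:72319251-72319313, plus strand: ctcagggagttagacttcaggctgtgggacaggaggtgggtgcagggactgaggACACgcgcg
Nr4a1 in CD11b+ cells, chr15:101267086-101267245, plus strand: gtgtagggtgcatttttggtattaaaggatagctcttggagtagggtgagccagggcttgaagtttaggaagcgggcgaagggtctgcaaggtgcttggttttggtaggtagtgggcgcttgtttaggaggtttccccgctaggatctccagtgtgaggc

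All of these lay in introns except the Lin- site of *Klf2*, which lay in the coding sequence. Neither *Zeb2* site held such an element. The CD11b+ site of *Zeb2* instead carried a run of alternating g and t followed by a run of alternating g and a, and the Lin- site was G-rich.

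IGF2BP3 peaks lay on 4 of the 8 genes in Lin- cells (*Klf2*, *Irf5*, *Spi1* and *Zeb2*) and on 7 of 8 in CD11b+ cells, where *Irf4* alone had none. The peaks counted were those left after removal of smInput peaks, in any library. Across each whole table, such a peak was present on 26.5% of the 26560 genes listed for Lin- cells and 25.6% of the 25887 listed for CD11b+ cells. Among genes whose mean level was at least 100 normalized counts, 51.9% had one in Lin- cells, where all 8 genes reached this level and 4 had peaks. The share at this level was 47.9% in CD11b+ cells, where the 7 genes above it all had peaks. The count of 4 in 8 for Lin- cells was thus close to the background at this level.

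Requiring peaks in at least 2 biological libraries left *Spi1* and *Zeb2* in Lin- cells and *Klf2*, *Irf5*, *Spi1*, *Nr4a1* and *Zeb2* in CD11b+ cells. These were 2 and 5 of 8, against 13.7% and 10.2% of all genes. Those shares are not limited to genes with a mean of at least 100, a level that 8 and 7 of the 8 genes reached. For peaks in any library that limit raised the share in both cell types, so the members are not set against genes of like level here. Without Lin- biological library 3, the other biological libraries gave 2 genes in Lin- cells, because both *Klf2* and *Irf5* had their only biological peak in that library. The CD11b+ peaks of *Klf4* came from 1 technical library. Those of *Maf* came from 1 biological and 1 technical library and shared no site.

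*Zeb2* carried most of the binding. In Lin- cells it held 105 of 117 peaks on the 8 genes (89.7%), and 253 of 313 in CD11b+ cells (80.8%). Merged, they made 29 sites in Lin- cells, which gave *Zeb2* rank 6 among all genes by number of sites, and 52 in CD11b+ cells, where it had rank 1. Per length it was less exceptional. With 2.17 sites per 10 kb in Lin- cells it ranked 2271 of 7855 genes with a site, and with 3.89 per 10 kb in CD11b+ cells it ranked 877 of 7261.

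The 3 biological Lin- libraries had 13, 25 and 17 *Zeb2* peaks, or 17.7, 24.9 and 19.6 per 10000 filtered peaks of the library. The 95% Wilson intervals of these values ran from 10.3 to 30.2, from 16.9 to 36.7 and from 12.2 to 31.3, and they cover counting error only. The biological CD11b+ libraries had 96 and 55 peaks, or 112.7 (92.4 to 137) and 54.7 (42.1 to 71.1) per 10000. Both CD11b+ libraries therefore lay above all 3 Lin- libraries, and their own intervals did not overlap either. The intervals treat peaks as independent, but neighbouring peaks of a library can be pieces of the same stretch. The 96 peaks of CD11b+ biological library 1 alone outnumbered the 52 merged sites of all 4 CD11b+ libraries. With peaks up to 50 nt apart merged, *Zeb2* had 25 Lin- and 35 CD11b+ sites. The technical libraries had 24.8, 40.0 and 31.0 per 10000 in Lin- cells and 83.0 and 55.0 in CD11b+ cells, so that the groups did not overlap with these included.

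The mean was 83.7 ± 41.0 per 10000 (SD, n = 2) for CD11b+ and 20.7 ± 3.75 (SD, n = 3) for Lin- cells, a 4.04-fold difference. An exact two-sided permutation test gave p = 0.1, the smallest value that 10 arrangements allow, so the design could not reach p = 0.05. Without CD11b+ biological library 1 the difference of 63.0 per 10000 became 34.0, and without library 2 it became 92.0. Between the same libraries, 11.4% of 8193 genes with a biological peak were higher in both CD11b+ libraries than in all Lin- libraries, and 9.47% were lower. Being higher takes a peak in both CD11b+ libraries, which only 2637 genes of the CD11b+ table had. Most of the 8193 genes could thus not be called higher, whereas 5 of the 8 genes of the set met this condition. Of the 6 genes of the set with a biological peak, *Klf2*, *Irf5*, *Nr4a1* and *Zeb2* were higher in this sense and none was lower.

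Each peak name ends in a number that was read as the reads under the peak, since it was never below 3 and fell with the peak's p-value in each library (Spearman's rho from -0.989 to -0.975 across peaks of the eCLIP libraries). On this measure, reads at *Zeb2* numbered 169, 690 and 175 in the biological Lin- libraries and 2631 and 1779 in the biological CD11b+ libraries. They made up 0.205%, 0.295% and 0.240% of all reads under filtered peaks in Lin- cells, and 2.41% and 1.10% in CD11b+ cells. *Zeb2* was the gene with the most such reads in CD11b+ biological library 1 and technical library 3, and its ranks were 4 and 5 in libraries 2 and 4. In the Lin- libraries its rank by reads ran from 33 to 57.

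The authors' mean RNA level of *Zeb2* over both genotypes was 6562 normalized counts in Lin- cells and 5851 in CD11b+ cells. Per the paper this RNA was poly(A)-selected, whereas eCLIP used wild-type cells and most *Zeb2* sites lay in introns. The level of *Zeb2* pre-mRNA was thus not measured, and the part of RNA level in the binding was not tested. The tables were normalized separately and the levels cannot be compared directly. Per kb of exon, 83.8% of genes in the Lin- table and 86.4% in the CD11b+ table lay below *Zeb2*. In bulk RNA, more cells of a type and more RNA per cell cannot be told apart, and the eCLIP rates share this limit.

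**Figure D1:**
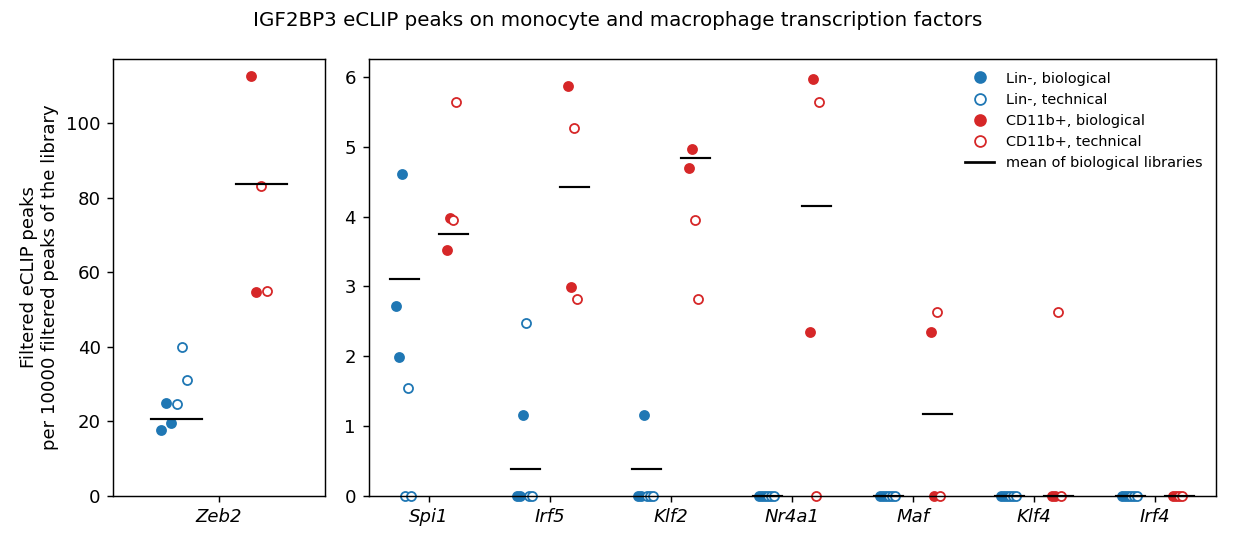
Filtered eCLIP peaks on each gene per 10000 filtered peaks of the library, with *Zeb2* on its own axis at left. Each point is a library, filled for biological and open for technical ones, and bars are means of the biological libraries. *Zeb2* lies between 17.7 and 40.0 in the 6 Lin- libraries and between 54.7 and 112.7 in the 4 CD11b+ libraries, and *Irf4* is at 0 throughout.

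*Zeb2* lies on the minus strand at chr2:44983632-45117395 (mm10), and most of its 133764 bp is the second intron of its main coding transcript (86911 bp, 65.0% of the gene). This intron held 22 of 29 Lin- sites and 47 of 52 CD11b+ sites. Within it the sites crowded toward the start. The first 20 kb of the gene, 15.0% of its length, held 19 Lin- sites (65.5%) and 36 CD11b+ sites (69.2%), and between 40 and 70 kb from the gene start Lin- cells had no site. Of the sites with peaks in at least 2 biological libraries, 9 of 15 in Lin- cells and 19 of 24 in CD11b+ cells were in the first 20 kb.

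Among Lin- sites the largest pile was the one printed above, 50 nt into intron 2. It had a peak in all 6 Lin- libraries, with up to 145 reads. The overlapping CD11b+ site, chr2:45109917-45109967, reached 349 reads in 1 library, the most at any site of the set. The CD11b+ site printed above, 810 nt from the 5′ splice site, reached 149 reads, and its Lin- counterpart 28. A broad site of 324 nt in CD11b+ cells and 299 nt in Lin- cells lay deep in the intron, 22460 nt or more from any annotated splice site, with peaks in every library of both cell types.

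**Figure D2:**
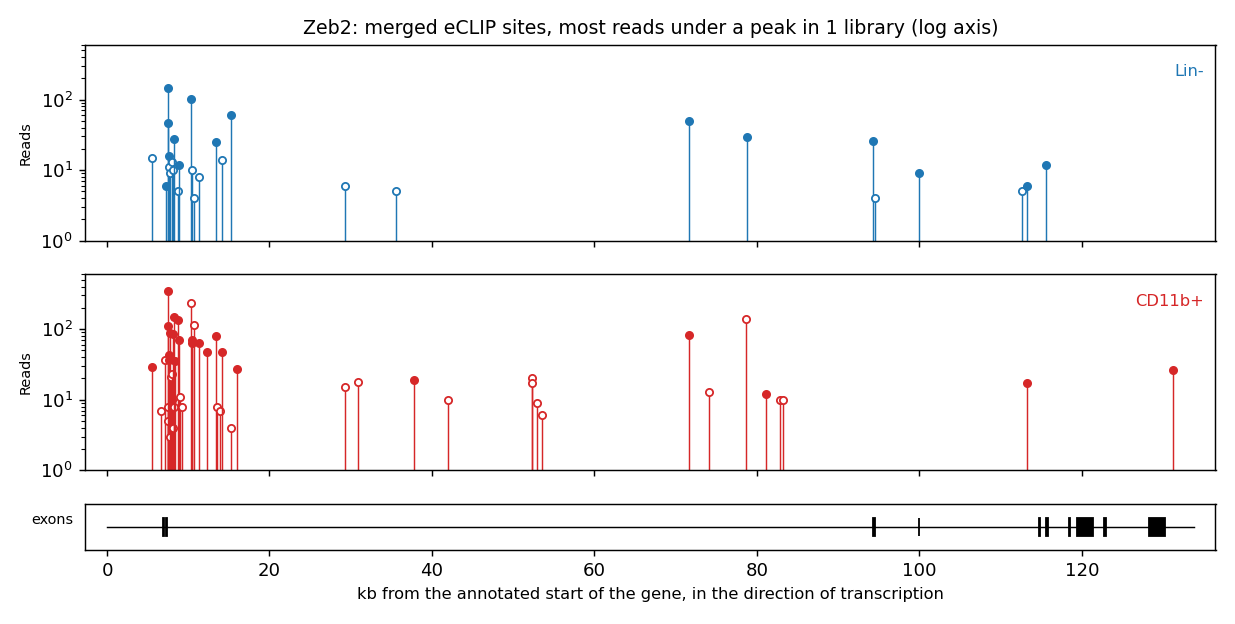
Merged eCLIP sites along *Zeb2* in Lin- cells (top) and CD11b+ cells (middle), by distance in kb from the gene start, with exons of the main coding transcript as boxes (bottom). Stems show the most reads under a peak of the site in 1 library on a log axis, and filled points mark sites with peaks in at least 2 biological libraries. In both cell types the tallest stems stand at the start of intron 2, and only CD11b+ cells have sites between 40 and 70 kb.

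The cell types shared much of this pattern. Of the Lin- sites of *Zeb2*, 22 of 29 overlapped a CD11b+ site by at least 1 nt (75.9%), and 27 of 52 CD11b+ sites overlapped a Lin- site (51.9%). Over all genes the shares were 25.1% of 20608 Lin- sites and 29.7% of 17735 CD11b+ sites. Sites with a peak in 1 library only made up 61.9% of all Lin- sites and 57.2% of all CD11b+ sites. For *Zeb2* they made up 24.1% and 30.8%, so the overlap shares do not set like sites side by side. The other members with sites in both cell types shared fewer, namely 1 site of *Irf5* and 1 of *Spi1*, while the single Lin- site of *Klf2* overlapped none of its 4 CD11b+ sites.

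Where *Zeb2* sites differed between the cell types, they differed by position. In Lin- cells 4 sites covered the intron-exon junctions at the ends of introns 1, 2, 3 and 5, with peaks in 3, 4, 4 and 5 of 6 libraries and up to 6, 26, 9 and 12 reads. The midpoint of the first of these fell in an annotated 5′ UTR. The site at the end of intron 2, chr2:45023093-45023153, also overlapped *Mir5129*, a microRNA gene annotated on the same strand. None of these had a counterpart in CD11b+ cells. No intronic CD11b+ site of *Zeb2* came within 100 nt of a 3′ splice site, whereas 3 of 28 intronic Lin- sites did. The corresponding shares over all intronic sites were 58.8% for Lin- and 16.3% for CD11b+, against 10.7% (3.71 to 27.2) and 0 of 50 (up to 7.13%) for *Zeb2*. In CD11b+ cells 1 site, with peaks in both biological libraries and up to 26 reads, lay in the 3′ UTR. No Lin- site did.

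The annotation places the antisense gene *Zeb2os* opposite the first part of *Zeb2*, and 1 Lin- and 2 CD11b+ sites lay opposite it. The peaks carry a strand, so reads of the antisense gene are kept apart from these.

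The other 7 genes had few peaks, and together they too lay higher in the CD11b+ libraries. In the biological Lin- libraries they summed to 2.72, 1.99 and 6.91 peaks per 10000, and in the biological CD11b+ libraries to 18.8 and 17.9. The groups did not overlap (means 18.3 ± 0.618 (SD, n = 2) and 3.87 ± 2.65 (SD, n = 3), exact permutation p = 0.1, the smallest possible). The lowest technical CD11b+ library stood at 16.9 and the highest technical Lin- library at 2.48.

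*Spi1* (chr2:91082390-91115756) had the highest RNA level of the set per kb of exon in both cell types, above 97.5% of genes in the Lin- table and 98.0% in the CD11b+ table, and it was the gene beside *Zeb2* with peaks in several Lin- libraries. Its peaks numbered 2, 2 and 4 in the biological Lin- libraries and 3 and 4 in the CD11b+ ones. Per 10000 these were 2.72, 1.99 and 4.61 against 3.52 and 3.98. The groups overlapped and the difference of 0.645 per 10000 was within the spread between libraries (exact permutation p = 0.5). Reads under *Spi1* peaks were 9, 8 and 21 in Lin- cells and 24 and 105 in CD11b+ cells. Per 10000 reads under filtered peaks these were 1.09, 0.342 and 2.87 against 2.20 and 6.51, so the groups overlapped on this measure too.

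The places on *Spi1* differed as well. There were 5 intronic sites in each cell type, and only 1 was common to both. In Lin- cells the remaining 4 lay at splice sites, and 3 of them had a peak in 1 library only, with up to 8 reads. The sites at the ends of introns 2 and 4 ended 2 nt from the first base of the exon, and 2 others overlapped 5′ splice sites. The intron 2 site, printed above, had a peak in all 3 biological Lin- libraries, although with no more than 4 reads. In CD11b+ cells no *Spi1* site came within 100 nt of a splice site.

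*Irf5* (chr6:29526625-29541871), an interferon regulatory factor of inflammatory macrophages, had 0, 0 and 1 peaks in the biological Lin- libraries and 5 and 3 in the CD11b+ libraries, or 0, 0 and 1.15 against 5.87 and 2.98 per 10000. The groups did not overlap (exact permutation p = 0.1), but 1 technical Lin- library reached 2.48, close to the lowest CD11b+ library at 2.82. All 6 CD11b+ sites were intronic. The sites in introns 1 and 2 had peaks in all 4 libraries, with up to 47 and 29 reads, and 3 crowded into the short introns 4 and 5. The single Lin- site, in intron 4 and 9 nt from the 3′ splice site, overlapped one of these.

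*Irf4* (chr13:30749226-30766976), the family member of dendritic cells and alternatively activated macrophages, had no peak in any of the 10 eCLIP libraries. Its RNA level per kb of exon was the lowest of the set, with an authors' mean of 204 normalized counts in Lin- cells and 70.1 in CD11b+ cells. Binding was not detected at this depth, which does not show that it was absent.

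*Klf2* (chr8:72319033-72321656) is a compact gene of 3 exons. It had 0, 0 and 1 peaks in the biological Lin- libraries and 4 and 5 in the CD11b+ ones, or 0, 0 and 1.15 against 4.69 and 4.97 per 10000 (exact permutation p = 0.1). The technical CD11b+ libraries had 3 and 2 peaks, and no technical Lin- library had any. In CD11b+ cells 3 of its 4 sites covered most of the 276 bp intron 1, from 1 nt after the last base of exon 1 to the 3′ splice site, with peaks in 3 or 4 libraries and up to 26 reads. The single Lin- peak, of 4 reads, lay in coding sequence of exon 2. With its 4 sites *Klf2* had 15.2 sites per 10 kb, the highest density of the set. Its RNA level lay above 69.1% of genes in the Lin- table and 94.6% in the CD11b+ table. Level and peaks moved the same way, and the part of the level in the peaks was not tested.

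*Klf4* (chr4:55527143-55532466) had no Lin- peak and 2 CD11b+ peaks of 3 reads, the smallest number in any list, both from technical library 3. One of them covered the last bases of intron 4 at the 3′ splice site. Its RNA level lay above 53.9% and 66.8% of genes.

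*Nr4a1* (chr15:101254269-101274795) had no peak in any Lin- library. In CD11b+ cells its peaks numbered 2 and 6 in the biological libraries and 0 and 4 in the technical ones, or 2.35, 5.97, 0 and 5.65 per 10000. Both biological libraries were above all Lin- libraries (exact permutation p = 0.1), while technical library 3 was at 0 like them. The 5 sites lay between 12.7 and 14.1 kb from the gene start, in intron 2 of the main transcript, beginning at a 5′ splice site of another annotated transcript. The widest, of 160 nt, is printed above, reached 29 reads and held no CA element. The RNA level of *Nr4a1* lay above 61.9% of genes in the Lin- table and 89.0% in the CD11b+ table. As for *Klf2*, the part of the level was not tested.

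*Maf* (chr8:115682942-115707794) ran the other way by its pooled means. It had an authors' mean of 1100 normalized counts and no peak in Lin- cells, and a mean of 209 and 4 peaks in CD11b+ cells. These means cover both genotypes, whereas eCLIP used wild-type cells. By RT-qPCR, the paper found *Maf* decreased in IGF2BP3 KO CD11b+ cells, so the wild-type level there may lie above the mean. Per kb of exon the pooled level of *Maf* lay above 62.3% and 48.6% of genes. The 4 peaks each had 3 reads. Of their sites 3 lay in the 3′ UTR of an annotated transcript and 1 in the 5′ UTR. The 3 were inside intron 1 of the main coding transcript. Only by the order of location calls was *Maf* thus the bound gene of the set without a site called intronic in CD11b+ cells. It was bound in CD11b+ biological library 1 and technical library 3, and not in libraries 2 and 4. Of these sites 2 lay opposite *Gm15655*, an antisense gene.

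**Figure D3:**
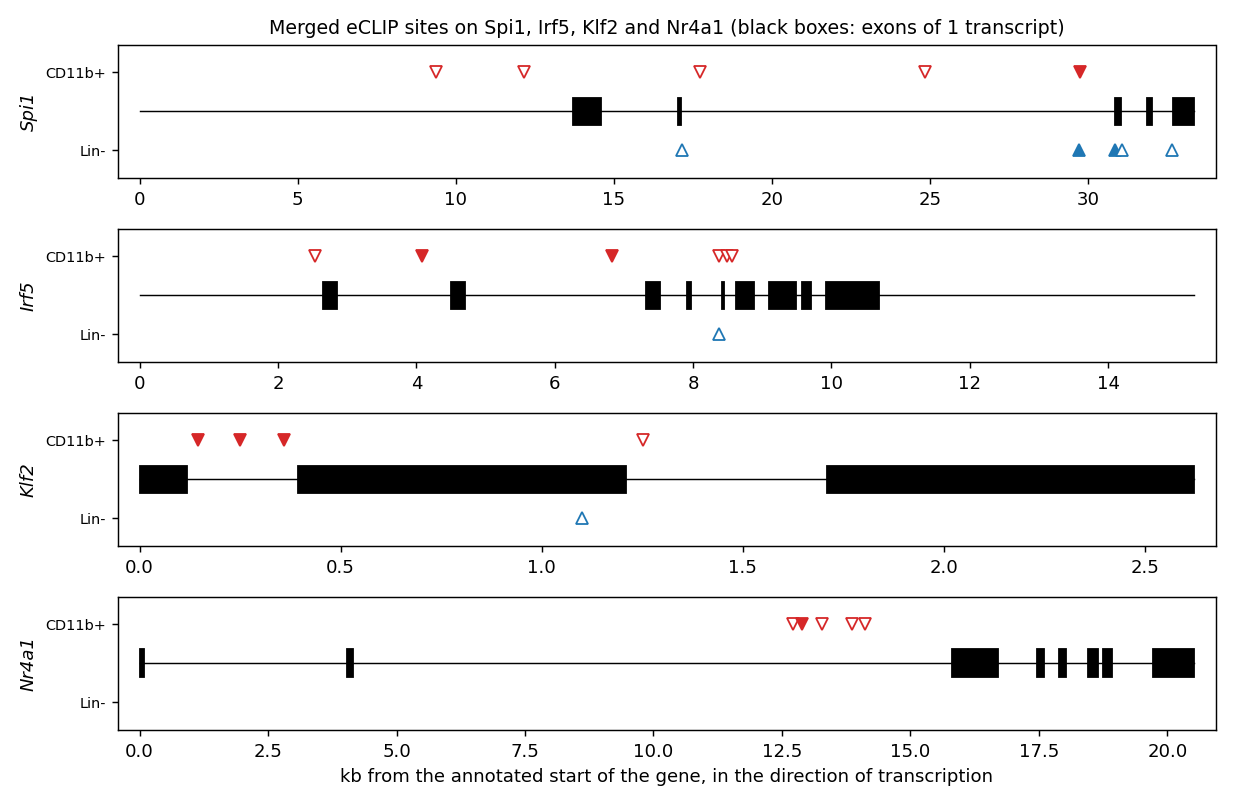
Merged eCLIP sites on *Spi1*, *Irf5*, *Klf2* and *Nr4a1*, with CD11b+ sites above and Lin- sites below each gene, by distance in kb from the gene start. Boxes are exons of the main coding transcript, and filled triangles mark sites with peaks in at least 2 biological libraries. Of the 5 Lin- sites of *Spi1*, 4 stand at exon edges, the CD11b+ sites of *Klf2* fill its first intron, and *Nr4a1* has sites in CD11b+ cells only.

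Over all 8 genes, 34 of 36 Lin- sites (94.4%, 95% Wilson interval 81.9 to 98.5) and 72 of 78 CD11b+ sites (92.3%, 84.2 to 96.4) were intronic. Over all genes the shares were 77.5% in Lin- cells and 83.7% in CD11b+ cells. When any overlap with an exon made a site exonic, the Lin- share of the set was 77.8%. Without *Zeb2* the shares were 85.7% of 7 and 84.6% of 26 sites. Coding sequence held 8.05% of all Lin- sites, and 1 of 36 here.

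The CA-rich 6-mers ACACAC or CACACA occurred in 6 of 36 Lin- sites (16.7%, 7.87 to 31.9) and in 10 of 78 CD11b+ sites (12.8%, 7.12 to 22.0). The shares over all sites, 8.35% in Lin- cells and 17.0% in CD11b+ cells, lay within these intervals. *Zeb2* had the 6-mers in 3 of 29 and 6 of 52 sites, although it had the most sites of any gene in CD11b+ cells. The biological CD11b+ libraries differed, with 4.46% of sites in library 1 alone and 10.96% in library 2 alone. The technical libraries, which are part of the 78 sites, were left out of both values. The remaining CA 6-mer sites were 2 on *Spi1* in each cell type, 1 on *Klf2* in Lin- cells and 2 on *Maf* in CD11b+ cells.

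The smInput libraries had almost no peaks on these genes. The unfiltered eCLIP peaks of the set amounted to 17.6, 23.3 and 23.2 per 10000 peaks in the biological Lin- libraries, and the smInput of the same numbers to 11.1, 7.25 and 0. In CD11b+ cells the values were 122 and 70.5 for eCLIP and 12.01 and 10.6 for smInput. The groups did not overlap in either cell type, with a difference of 15.2 in Lin- cells (exact permutation p = 0.1, the smallest possible) and 85.2 in CD11b+ cells (exact permutation p = 0.333, the smallest possible). All 3 smInput peaks in Lin- cells and 7 of 10 in CD11b+ cells were on *Zeb2*. The smInput was deduplicated and called with other settings than eCLIP and its libraries had fewer peaks, 217 to 1808 for Lin- and 1381 to 1885 for CD11b+ cells. An smInput peak overlapped 1 Lin- and 7 CD11b+ sites of *Zeb2*. Among them was its highest CD11b+ site, where the smInput peak had 3 reads, and at other CD11b+ sites smInput reached up to 13 reads. The input filter removed 26 *Zeb2* peaks from the CD11b+ libraries and 2 from the Lin- libraries, so reads under filtered peaks leave these out.

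The RNA levels ordered the genes differently in the 2 cell types. Per kb of exon, the order in Lin- cells was *Spi1*, *Zeb2*, *Irf5*, *Klf2*, *Maf*, *Nr4a1*, *Klf4* and *Irf4*, from 2763 down to 42.8 normalized counts per kb by the authors' means. In CD11b+ cells it was *Spi1*, *Klf2*, *Irf5*, *Nr4a1*, *Zeb2*, *Klf4*, *Maf* and *Irf4*, from 4795 down to 14.7. The means have no spread between libraries, so neighbours in these orders cannot be tested. The median of the 8 percentiles was 65.7 for Lin- and 87.7 for CD11b+ cells.

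**Figure D4:**
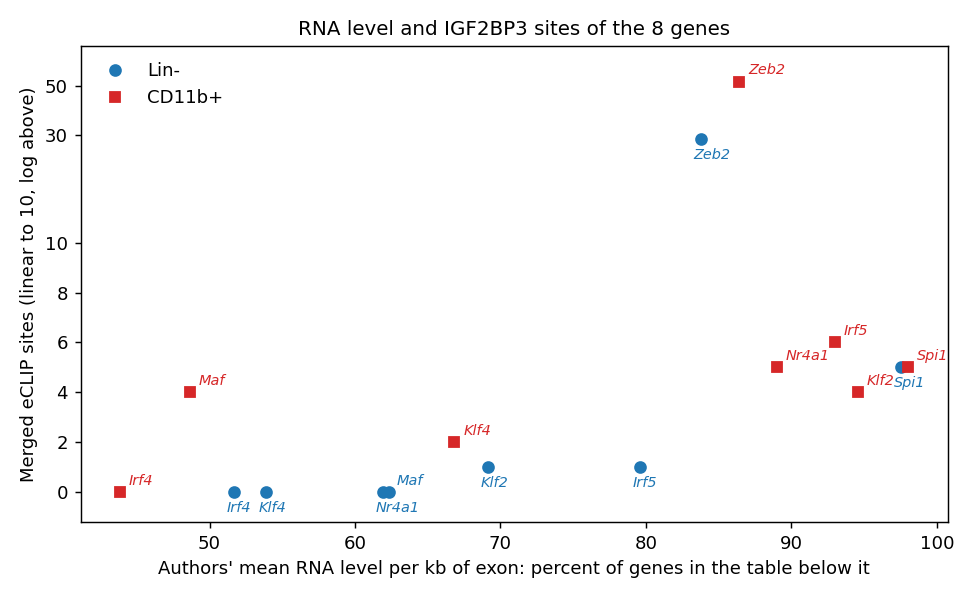
Number of merged eCLIP sites of each gene against its RNA level, given as the percent of genes in the table with a lower authors' mean per kb of exon, in Lin- cells (circles) and CD11b+ cells (squares). *Zeb2* has 29 and 52 sites at a level per kb of exon that other genes of the set exceed with 4 to 6 sites. The genes without sites lie at or below 62.3% of genes in their table. Sites are counted over the whole gene, which is 133764 bp for *Zeb2*. Without division by exon length *Zeb2* lies above 97.0% and 97.6% of genes, and only *Spi1* in CD11b+ cells lies higher, at 98.9%.

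Relatives of the 8 genes were examined in the same way. Of 32 relatives in the MAF, KLF, IRF, ETS, NR4A and ZEB families, 31 were in the Lin- table and 12 of them had a peak, while 30 were in the CD11b+ table and 17 had one. The shares over all genes of the tables were 26.5% and 25.6%, and 51.9% and 47.9% at a mean of at least 100. In Lin- cells the most sites were on *Irf1* and *Irf9* with 8 each, followed by *Klf10*, *Irf3* and *Irf7* with 4 each. In CD11b+ cells they were on *Klf13* with 10, *Mafg* with 9, *Klf6* with 4, and *Klf3*, *Klf10*, *Irf1* and *Irf9* with 3 each. *Zeb1*, the paralog of *Zeb2*, had no site in either cell type. Of 17 relatives with a biological peak, 6 were higher in both CD11b+ libraries than in all Lin- libraries and 1 was lower. The shares beside these were 11.4% and 9.47% of the 8193 genes with a biological peak, most of which could not be called higher.

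Genes of monocyte and macrophage function were counted beside them. Of 14 such genes, 13 were in the Lin- table and 6 had a peak, and all 14 were in the CD11b+ table and 10 had one. The Lin- count was near the 51.9% of genes with a mean of at least 100, and the CD11b+ count stands beside 47.9%. *Ccr2*, the chemokine receptor of inflammatory monocytes, had 2 Lin- and 14 CD11b+ sites, and *Csf1r*, the receptor for M-CSF and a PU.1 target, had 4 and 9. *Lyz2*, encoding lysozyme, had 1 and 6, *Cd163* had 1 and 8, and *Itgam* had 11 in CD11b+ cells. *Cd14*, *Adgre1*, *Fcgr1* and *Marco* had none in either. Of 9 with a biological peak, 3 (*Ccr2*, *Cx3cr1* and *Lyz2*) were higher in both CD11b+ libraries and none was lower. Again 11.4% and 9.47% of the 8193 genes with a biological peak stand beside this, most of which could not be called higher.

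By Euclidean distance between peaks per 10000 in the 10 eCLIP libraries, the genes nearest to *Zeb2* were *Gm42418* at 107, *Dock2* at 122 and *Arid1a* at 124. This distance depends on the level of the rates as well as on their pattern. *Dock2*, a guanine nucleotide exchange factor of hematopoietic cells, ran from 1.36 to 10.8 per 10000 in Lin- cells and from 23.7 to 87.5 in CD11b+ cells.

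The libraries carried 4040 to 10042 filtered peaks for Lin- and 7085 to 10054 for CD11b+ cells. The reads under them numbered 35663 to 233695 and 91587 to 161236. Progenitor genes *Kit*, *Cd34* and *Flt3* had authors' means of 6974 to 9396 normalized counts in the Lin- table and 390 to 1291 in the CD11b+ table, whereas *Myb* stood at 22676 and 37516. All 8 monocyte markers were detected in both tables, with summed means of 29455 and 42533. They did not all go one way, with *Ccr2* at 11894 and 2971 and *Fcgr1* at 166 and 35.5, while the others had the larger mean in the CD11b+ table. The separate normalization of the tables limits all of these pairs of values. *Itgam*, which encodes CD11b, had a mean of 17.0 in the CD11b+ table, although 11 sites were called on it. *Gm49368*, annotated over nearly the whole of *Itgam* on the same strand, had 77.2, and the part of this overlap was not tested. Neutrophil granule markers summed to 139408 and 266076, B cell markers to 405 and 747, T and NK cell markers to 1012 and 129, erythroid markers to 282 and 4523, and endothelial and stromal markers to 7145 and 3895. A single gene made up most of some sums, with *Pecam1* at 7064 and 3852 among the last and *Nkg7* at 990 among the T and NK cell markers of the Lin- table. Their part in the results was not tested.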

How the data were processed

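Size-matched input and eCLIP peaks were those deposited by the authors, called per library with CLIPper at p < 0.05 on mm10; in the filtered lists, peaks overlapping smInput peaks had been removed. Per the file headers, the fifth field is a p-value (a value between 0 and 1, held as another unit) and the peak name holds gene, peak number and, as read here, reads. The RNA tables deposited by the authors hold the DESeq2 mean of normalized counts over 6 libraries (signal), which was used, and fold changes, p-values and peak flags of their wild-type and IGF2BP3 KO comparison, which were not used, so no genotype comparison was made. RNA reads were aligned with STAR 2.5.3a, per the labels.

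Peaks of a gene were merged into sites at an overlap of at least 1 nt on the same strand. Site midpoints were located in GENCODE vM21 basic models, in the order CDS, 3′ UTR, 5′ UTR, other exon, intron; the main transcript had the longest CDS. Peak rates were compared over biological libraries by exact two-sided permutation of the means, with NumPy 2.4.6 and SciPy 1.17.1. Technical libraries are not independent, and labels do not say which biological library each repeats. Where nothing says that samples came from separate animals, p-values measure only the spread between these samples. Merging, location calls and tests were checked on simulated data. All 8 genes are named, as are up to 5 relatives per cell type with most sites (ties kept) and the 3 genes nearest to *Zeb2*. The genes and lists were chosen with earlier results of these data known. Alternatives left out a library, used unfiltered peaks, peaks with p below 0.001, other merging and other motif definitions. The sequence of 1 *Spi1* site is not reported here.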

Additional observations from a re-analysis of the deposited data

Results flagged for a closer look

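The closer look covered 40 groups of 4 or 6 libraries (each gene and 2 sums, by peaks and by reads). In 6 of them the gap from 1 library to the nearest of the others was large against the whole range. A chance rate of about 1 in 20 cannot be applied to counts this sparse. A group with peaks in 1 library only is always flagged, as for *Klf4* and *Klf2*, and a group without peaks never is. *Klf4* had peaks in CD11b+ technical library 3 only, at 2.64 per 10000 filtered peaks and 0.655 per 10000 reads under filtered peaks. *Klf2* had its Lin- peak in biological library 3 only, at 1.15 per 10000 peaks and 0.548 per 10000 reads. The 7 genes other than *Zeb2* summed to 4.11 per 10000 reads in Lin- biological library 3, where the next library had 1.11. They summed to 13.4 in CD11b+ technical library 4, where the next had 18.2.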

How the results depend on the processing

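Of 101 recomputed values for 16 results, 15 moved, 4 passed the threshold only under the alternative, and 82 did neither, although for tested differences this covers direction and threshold and not size. The difference of 77.4 peaks per 10000 between the cell types was 14.5 without *Zeb2* and 168 by reads under peaks (both chosen after seeing the data), and that of 63.0 for *Zeb2* was 151 by reads and 34.0 to 92.0 with a library left out. With 2 or 3 biological libraries a group, no main test could reach 0.05. When technical libraries were counted as independent, the CD11b+ minus Lin- difference was 65.5 peaks per 10000 (exact permutation p = 0.00476) for the 8 genes and 50.04 (exact permutation p = 0.00476) for *Zeb2*. The eCLIP minus smInput difference was then 21.2 in Lin- cells (exact permutation p = 0.00216) and 74.8 in CD11b+ cells (exact permutation p = 0.0286). Pairing by replicate number as a block gave 78.4 for the 8 genes and 62.4 for *Zeb2* between the cell types, and 15.2 and 85.2 for eCLIP against smInput in Lin- and CD11b+ cells, and changed no call. The numbers are not known to pair the cell types. In Lin- cells, 2 genes were bound with p below 0.001 and 2 with a peak in at least 2 biological libraries. The biological libraries less one gave 2 to 4 bound genes. In CD11b+ cells, the biological libraries less one gave an intronic share of 96.4% to 98.6% and a CA 6-mer share of 4.46% to 10.96%, and p below 0.001 gave an intronic share of 96.8%. Sites with peaks in at least 2 biological libraries numbered 17 in Lin- and 31 in CD11b+ cells. Merging peaks up to 50 nt apart gave 32 and 58 sites, and for *Zeb2* 25 and 35. Without *Zeb2*, an alternative chosen after seeing the data, 7 and 26 sites remained, with the CA 6-mers in 42.9% of the Lin- sites. Any overlap with an exon as exonic gave 77.8% intronic in Lin- cells. With no division by exon length the median level percentile was 71.7 in Lin- and 91.7 in CD11b+ cells. Apart from values that follow from fewer peaks or genes by construction, the cause was not tested. Depth limits the genes with few reads. A peak of 3 reads is the smallest listed, so genes without peaks are not shown to be unbound.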
